A study of Mus musculus with 8 samples.

Results

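Small nucleolar RNAs (snoRNAs) are short guide RNAs that direct chemical modification and processing of ribosomal RNA, and in mammals most of them are cut from the introns of longer host transcripts. The RNAs described here, Snhg1, Snhg3, Snhg5, Snhg6, Snhg8, Snhg12 and Gas5, are non-coding hosts: once spliced, their exons code for no known conserved protein. Several such hosts begin with a run of pyrimidines, the terminal oligopyrimidine (TOP) tract that they share with ribosomal protein mRNAs, and the spliced RNAs of Gas5 and other hosts are known to be removed by nonsense-mediated decay, a pathway tied to translation. The level of a spliced host RNA therefore reports transcription and decay of the host, and is not a measure of its snoRNAs. The 7 genes form a list of names that was chosen by the LPS response of Snhg6, which was higher with LPS in Gata1 knock-out and in wild-type cells. All 7 of 7 were present among the 23420 rows of the deposited count table, and all 7 were among the 12442 rows that passed the filter on low counts.

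The libraries came from mouse dendritic cells, the antigen-presenting cells that carry antigen to lymph nodes. The 4 groups were Gata1 knock-out (KO) cells stimulated with LPS, KO cells at steady state, wild-type (WT) cells stimulated with LPS and WT cells at steady state, with 2 libraries each, which the design text calls biological replicates. LPS, a cell wall component of gram-negative bacteria, activates these cells through the receptor Tlr4, and Gata1 encodes a transcription factor best known from red cell, megakaryocyte and mast cell lineages. The sources used here do not give the knock-out strategy, the cell source, the age and strain of the mice, or the dose and duration of LPS. They also do not say whether the replicates were separate animals or cultures, so p-values measure only the spread between these libraries. Levels are CPM, read counts scaled to library size with edgeR's TMM factors, and a mean ± SD is over 2 libraries. Fold changes are log2 ± SE from edgeR's quasi-likelihood fit over all 8 libraries, and adjusted p is its Benjamini-Hochberg value over 12442 genes, called under 0.05.

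Total counts ran from 8005151 to 15495249 per library. Gata1 had 0 reads over the KO libraries, against 1 read over the WT LPS libraries and 11 over the WT steady-state libraries, so it says little about the labels with LPS. The 9 dendritic cell markers (Itgax, Flt3, Zbtb46, H2-Aa, H2-Ab1, Cd74, Ccr7, Batf3 and Irf4) were all detected in every group. Their sum was 4569 and 9769 CPM in KO LPS, 21113 and 20137 CPM in KO steady state, 15764 and 9831 CPM in WT LPS, and 28615 and 16102 CPM in WT steady state. The libraries of the LPS groups lay further apart than those at steady state: for log2 CPM, the SD between a group's libraries had a median over genes of 0.33 in KO LPS, 0.11 in KO steady state, 0.44 in WT LPS and 0.19 in WT steady state. In bulk RNA, fewer cells of a type and less RNA per cell cannot be told apart.

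The snoRNAs that these genes carry are shown first, because they define the group. In the GENCODE M21 annotation of GRCm38 (the assembly of mm10), 27 distinct snoRNA names lie inside the 7 genes on the same strand: 9 in Gas5, 8 in Snhg1, 4 in Snhg12, 2 in each of Snhg3 and Snhg5, and 1 in each of Snhg6 and Snhg8. Of these, 16 held both boxes of the box C/D class, which guides ribose methylation, searched as TGATGA in the first 20 bases and CTGA in the last 20. Another 5, longer than 100 bases, held ACA in the last 10 bases, the mark of the H/ACA class, which guides pseudouridylation, and 6 held neither pattern in these windows. Examples of both classes follow 5′ to 3′, with those boxes in capitals. Snord87 is the snoRNA of Snhg6 (chr1:9942463-9942549, minus strand), Snord47 comes from Gas5 (chr1:161038082-161038158, plus strand), Snord50a from Snhg5 (chr9:88521529-88521600, minus strand) and Snord99 from Snhg12 (chr4:132310691-132310764, plus strand), all of box C/D type. Snora24 is the H/ACA snoRNA of Snhg8 (chr3:123507937-123508066, minus strand).
Snord87: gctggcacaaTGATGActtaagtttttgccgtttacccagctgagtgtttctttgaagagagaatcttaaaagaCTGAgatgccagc
Snord47: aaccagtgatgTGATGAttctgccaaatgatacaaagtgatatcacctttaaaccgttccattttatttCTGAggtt
Snord50a: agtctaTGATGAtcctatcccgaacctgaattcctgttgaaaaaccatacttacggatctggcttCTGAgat
Snord99: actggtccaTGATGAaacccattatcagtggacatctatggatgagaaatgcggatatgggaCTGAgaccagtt
Snora24: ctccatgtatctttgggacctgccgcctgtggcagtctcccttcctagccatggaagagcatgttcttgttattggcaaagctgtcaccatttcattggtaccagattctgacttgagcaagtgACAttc
Rows named for the snoRNAs themselves held few reads in these libraries. The table had rows for 9 of the 27 names, and the highest count of any of them in a library was 16, for Snord22. Snord22, Snora16a, Snora44, Snora61 and Snord99 overlap annotated spliced exons of their hosts, so their reads can come from host RNA. Mir5117 in Gas5, a microRNA name annotated among the snoRNAs, is 1 of the 9 and had 0 reads. Snord87 had 0 to 3 reads per library and Snora24 had 0 in all, so no statement on snoRNA levels can be made at this depth, and the kit's handling of RNAs this short is not described in the labels.

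The annotated 5′ ends of the hosts are shown because a TOP tract, known from several such hosts, is shared with mRNAs of the translation machinery. RefSeq promoter entries (GRCm38.p6) matched 6 of the 7 members by symbol, with 2 entries for Gas5, and there was no entry for Snhg6. Each line gives 30 bases before the annotated start and 30 from it onward, and the capitals mark the longest run of C or T between 10 bases before the start and 15 after it.
Snhg8 (chr3:123508307-123508366, minus strand): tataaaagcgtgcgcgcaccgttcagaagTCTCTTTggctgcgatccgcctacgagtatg
Snhg3 (chr4:132353657-132353716, minus strand): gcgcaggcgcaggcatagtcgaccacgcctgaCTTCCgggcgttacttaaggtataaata
Snhg1 (chr19:8723457-8723516, plus strand): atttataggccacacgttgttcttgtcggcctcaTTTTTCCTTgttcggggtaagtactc
Snhg5 (chr9:88522868-88522927, minus strand): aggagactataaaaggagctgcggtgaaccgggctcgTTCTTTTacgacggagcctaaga
Snhg12 (chr4:132308648-132308707, plus strand): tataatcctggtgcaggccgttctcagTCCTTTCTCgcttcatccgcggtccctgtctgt
Gas5, entry 2 (chr1:161035136-161035195, plus strand): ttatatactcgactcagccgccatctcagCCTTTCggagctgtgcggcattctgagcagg
The longest pyrimidine run was 9 bases in Snhg1 and Snhg12, 7 in Snhg5 and Snhg8, 6 in the second entry of Gas5 and 5 in Snhg3, against a median of 4 over 32851 promoter entries. A run of at least 9 was found in 5.87% of all entries, of at least 7 in 15.2% and of at least 5 in 40.7%. The first entry of Gas5, with a run of 3, was met or exceeded by 83.9% of entries. The runs of Snhg1 and Snhg5 began at bases 5 and 8 counted from the annotated start, not at the start itself. Motifs were searched over each whole entry, on the transcribed strand, unless said otherwise. The letters TATA stood in the 20 bases from position -40 to -21 in 4 members (Snhg1, Snhg8, Snhg12 and the second Gas5 entry), and in 5.34% of all entries. In Snhg5 the letters TATA, seen in its line above, run past the end of that window and were not counted. CACGTG, the letters of the E-box bound by Myc, was in 0 of the 7 member entries and in 7.15% of all entries. CCGGAAG on either strand, the core bound by ETS factors, was in 1, that of Snhg3, and in 8.86% of all. These matches describe letters in a window and identify no binding site.

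Per length of transcript, Gas5 was the most abundant host at steady state and Snhg12 the least. Levels between genes are compared as CPM per kilobase of the median spliced transcript in GENCODE M21. On that scale Gas5 stood at 128 ± 14.7 in KO and 166 ± 16.1 in WT steady-state cells (SD, n = 2). Snhg1 came next at 19.4 ± 3.30 in KO and 25.3 ± 0.887 in WT. The neighbours Snhg8 (12.6 ± 0.343 in KO, 15.1 ± 5.46 in WT), Snhg6 (10.4 ± 0.552 and 13.4 ± 2.57), Snhg5 (11.3 ± 1.05 and 13.1 ± 0.889) and Snhg3 (10.2 ± 1.62 and 10.6 ± 2.77) were not separated beyond their spread in WT, and Snhg12 was at 5.53 ± 0.440 and 7.38 ± 0.00303. With LPS, Gas5 was at 101 ± 20.3 in KO and 288 ± 95.3 in WT, and Snhg6 was at 89.1 ± 55.5 and 135 ± 90.3, so that their intervals of mean ± SD overlapped in each genotype. Gas5 has many annotated isoforms that keep introns. With the length of all annotated exons in place of the spliced length, Gas5 stayed first at steady state (17.1 in KO and 22.2 in WT, against 7.23 and 8.65 for Snhg8, the next), while Snhg6 came first with LPS (43.5 in KO and 65.6 in WT).

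**Figure D1:**
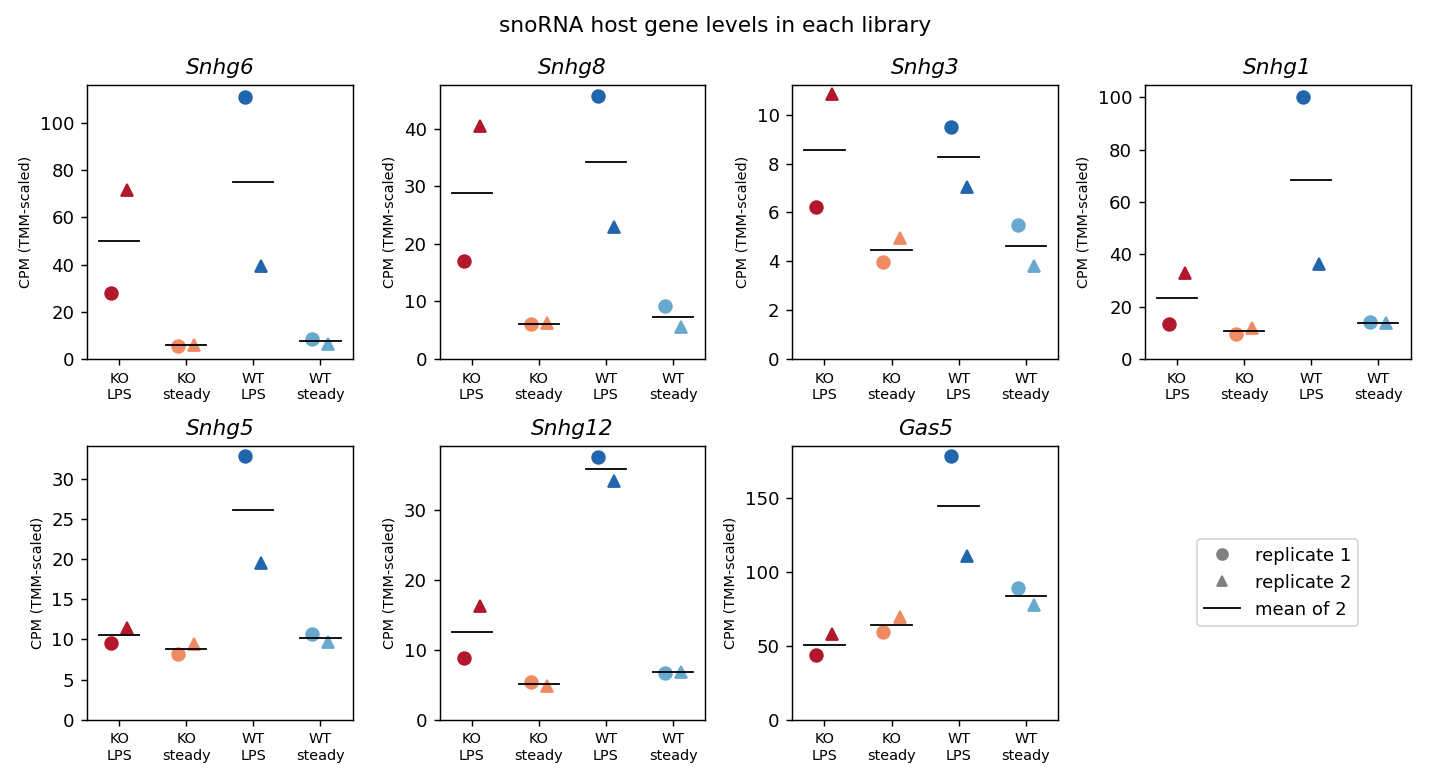
CPM (TMM-scaled, linear axis from 0) of each host RNA in the 8 libraries, with circles for replicate 1, triangles for replicate 2 and a line at the mean of 2. The LPS libraries of a group lie far apart for Snhg6, Snhg8 and Snhg1, and both WT LPS libraries lie above both KO LPS libraries for Snhg1, Snhg5, Snhg12 and Gas5.

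The response to LPS was the basis on which the group was assembled, so it is given as a description without a test. Snhg6, the host of Snord87, had 27.9 and 71.8 CPM in KO LPS, against 5.58 and 6.02 CPM in KO steady state. In WT cells it had 111 and 39.5 CPM with LPS, against 8.49 and 6.46 CPM at steady state. Every LPS library of Snhg6 thus lay above every steady-state library. The log2 difference was 3.10 ± 0.62 in KO and 3.33 ± 0.62 in WT, which is 8.56-fold and 10.04-fold. Snhg8, the host of Snora24, followed the same order at a lower level, with 17.0 and 40.6 CPM in KO LPS, against 6.05 and 6.28 CPM in KO steady state. It had 45.6 and 23.0 CPM in WT LPS, against 9.27 and 5.50 CPM in WT steady state. The log2 differences of Snhg8 were 2.22 ± 0.53 in KO and 2.21 ± 0.53 in WT. Snhg3, the host of the H/ACA RNAs Snora73a and Snora73b, which belong to the U17 family that acts in processing of the small-subunit rRNA, showed a smaller difference. It had 6.21 and 10.9 CPM in KO LPS, against 3.95 and 4.95 CPM in KO steady state, and 9.52 and 7.05 CPM in WT LPS, against 5.50 and 3.79 CPM in WT steady state. The groups of Snhg3 did not overlap in either genotype, and its log2 differences were 0.93 ± 0.43 in KO and 0.83 ± 0.43 in WT.

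The other 4 hosts had a larger LPS difference in WT than in KO cells. Snhg12 carries Snora16a, Snora44, Snora61 and Snord99. It had 8.81 and 16.2 CPM in KO LPS, against 5.35 and 4.78 CPM in KO steady state, and 37.5 and 34.1 CPM in WT LPS, against 6.76 and 6.76 CPM in WT steady state. The WT libraries of Snhg12 were close to each other under both conditions, and its log2 differences were 1.30 ± 0.35 in KO and 2.40 ± 0.35 in WT. Snhg1, a host of Snord22 and a cluster of box C/D RNAs, had 13.3 and 33.1 CPM in KO LPS, against 9.38 and 11.9 CPM in KO steady state. In WT cells Snhg1 had 100 and 36.5 CPM with LPS, against 14.3 and 13.6 CPM at steady state, so the WT LPS libraries differed by 2.75-fold. Its log2 differences were 1.12 ± 0.56 in KO and 2.29 ± 0.57 in WT. Snhg5, the host of the U50 RNAs Snord50a and Snord50b, had 9.60 and 11.5 CPM in KO LPS, against 8.22 and 9.38 CPM in KO steady state. It had 32.9 and 19.5 CPM in WT LPS, against 10.7 and 9.73 CPM in WT steady state. In KO cells the groups of Snhg5 nearly touched, with a log2 difference of 0.26 ± 0.34, against 1.35 ± 0.34 in WT. Gas5, first isolated as an RNA that accumulates in growth-arrested mouse fibroblasts, went in opposite directions. It had 43.5 and 57.8 CPM in KO LPS, against 59.1 and 69.5 CPM in KO steady state, and 179 and 111 CPM in WT LPS, against 89.1 and 77.6 CPM in WT steady state. The log2 difference of Gas5 was -0.35 ± 0.30 in KO and 0.79 ± 0.30 in WT.

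In KO cells 6 of the 7 members lay above steady state without overlap and 1, Gas5, below it, where 34.4% and 38.2% of all tested genes did so. In WT cells all 7 lay above, where 27.5% of all tested genes did. The adjusted threshold called Snhg6 and Snhg8 higher in KO (11.8% of all tested genes were called in either direction) and Snhg6 and Snhg12 higher in WT (6.49% of all). Since the contrast chose the group, nothing is read from these counts. They also moved with the libraries: in KO the count was 0 without KO LPS replicate 2 or without any 1 of the 4 steady-state libraries, and 3 without KO LPS replicate 1 or either WT LPS library. In WT it was 0 without either WT steady-state library, 1 without either KO steady-state library, 3 without either KO LPS library and 6 without WT LPS replicate 2. It was 5 in WT with DESeq2 and 5 with no filter, 1 with only the groups compared, and 1 in each genotype when replicate numbers were a block. The log2 difference of Snhg6 itself was 2.24 in KO without KO LPS replicate 2 and 2.41 in WT without WT LPS replicate 1.

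**Figure D2:**
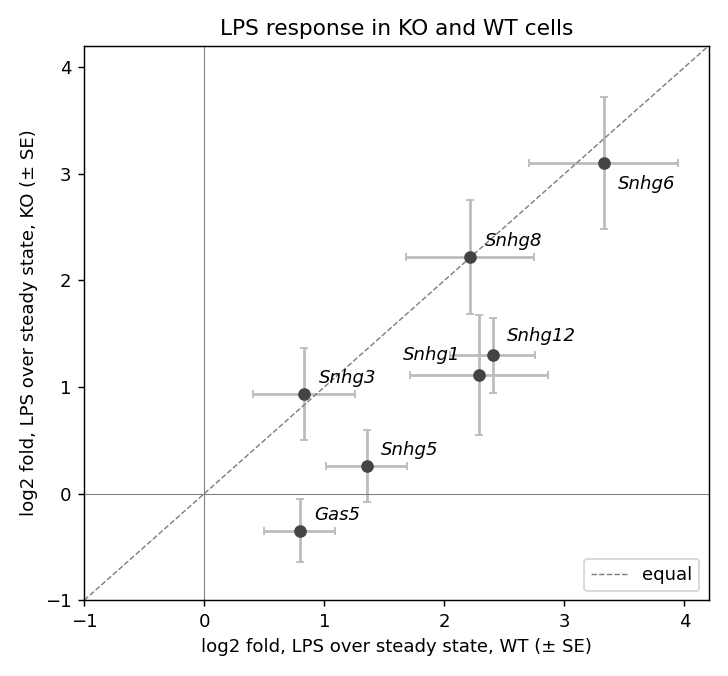
Log2 fold of LPS over steady state in KO cells (vertical axis) against that in WT cells (horizontal axis) for the 7 hosts, with bars of 1 SE from the edgeR fit and a dashed line where both would be equal. Snhg6, Snhg8 and Snhg3 lie near the line, and Snhg1, Snhg5, Snhg12 and Gas5 lie below it, with differences between -1.17 and -1.09.

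Whether the LPS responses differed between genotypes was tested with the interaction term, KO response minus WT response. Gas5 had a log2 difference of -1.14 ± 0.42, with an unadjusted p of 0.0283 and an edgeR adjusted p of 0.694. Snhg12 (-1.11 ± 0.49, edgeR adjusted p = 0.793), Snhg5 (-1.09 ± 0.47, edgeR adjusted p = 0.787) and Snhg1 (-1.17 ± 0.79, edgeR adjusted p = 0.938) had differences of like size. Snhg6 (-0.23 ± 0.82), Snhg3 (0.10 ± 0.60) and Snhg8 (0.00 ± 0.67) each had an edgeR adjusted p of 1 after rounding, with errors wide enough to hold differences as large as those of the other 4. The rule used both responses of Snhg6, though not their difference. None of the 7 passed by edgeR or by DESeq2, and 1 of 7 (Gas5) was lower at an unadjusted p under 0.05, where 3.64% of all genes were. The background called by edgeR at the adjusted threshold was 0%. Thus no difference in LPS response was detected for any member at this replication. Without 1 library the sign turned for Snhg6 (0.30 without KO LPS replicate 1, 0.69 without WT LPS replicate 1), Snhg3 (-0.38 without KO LPS replicate 2, -0.05 without KO steady-state replicate 1, -0.10 without WT LPS replicate 2, -0.18 without WT steady-state replicate 1) and Snhg8 (-0.78, -0.02, -0.41 and -0.40 without the same 4 libraries), and for none of the other 4.

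The direct comparison of genotypes under LPS was not used to choose the genes. Gas5, Snhg12, Snhg5 and Snhg1 were lower in KO than in WT LPS libraries, without overlap. For Gas5, KO LPS libraries had 385 and 378 reads, against 1351 and 1793 reads in WT LPS libraries, and the log2 difference was -1.51 ± 0.30, a level 2.86-fold lower in KO (edgeR adjusted p = 0.0736). The Snhg12 libraries had 78 and 106 reads in KO, against 284 and 552 reads in WT, with a log2 difference of -1.52 ± 0.34, or 2.87-fold lower (edgeR adjusted p = 0.0899). For Snhg5 there were 85 and 75 reads in KO, against 249 and 315 in WT, with a log2 difference of -1.31 ± 0.34, or 2.48-fold lower (edgeR adjusted p = 0.114). Snhg1 had 118 and 216 reads in KO, against 758 and 590 in WT, with a log2 difference of -1.56 ± 0.56, or 2.95-fold lower (edgeR adjusted p = 0.220), although its KO replicate 2 (33.1 CPM) and its WT replicate 2 (36.5 CPM) nearly met. None of these 4 passed the adjusted threshold, which called 0.490% of all genes lower. All 4 had an unadjusted p under 0.05 (0.00132, 0.00265, 0.00549 and 0.0259 in that order), as did 9.46% of all genes in that direction. The libraries of 18.1% of all genes lay lower in KO without overlap.

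The other 3 hosts did not separate the genotypes under LPS. Snhg6 averaged 49.8 ± 31.0 CPM in KO and 75.2 ± 50.5 CPM in WT cells (SD, n = 2), a log2 difference of -0.59 ± 0.56 (edgeR adjusted p = 0.669). For Snhg8 the KO mean was 28.8 ± 16.6 CPM and the WT mean 34.3 ± 16.0 CPM, which differed by -0.25 ± 0.51 (edgeR adjusted p = 0.862). For Snhg3 the KO mean was 8.54 ± 3.29 CPM and the WT mean 8.28 ± 1.74 CPM, which differed by 0.04 ± 0.42 on the log2 scale (edgeR adjusted p = 0.975). The libraries of the groups overlapped for all 3. The median log2 difference was -1.31 over the 7 members and -0.01 over all tested genes. The dendritic cell markers were also lower in KO in this comparison: all 9 were below 0, as were 50.9% of all tested genes, with a median of -2.14. Ccr7, the lymph node homing receptor, fell (log2 -2.59 ± 0.40, edgeR adjusted p = 0.0439), and Zbtb46, Itgax and Batf3 had log2 differences of -2.47 ± 0.46, -2.43 ± 0.54 and -2.14 ± 0.37 without passing. In the LPS response of KO cells all 9 were below 0 and 5 were called (Itgax, Flt3, Zbtb46, Ccr7 and Batf3). In that of WT cells 8 of the 9 markers were below 0 and 1, Ccr7, was called (log2 -1.89 ± 0.39, edgeR adjusted p = 0.0340). The hosts had the opposite direction in these responses, with 6 of the 7 above 0 in KO and 7 of the 7 in WT. The part of the dendritic cell markers in the host levels was not tested.

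These calls depended on the tool. DESeq2 called 3 of the 7 lower in KO, Gas5 (adjusted p = 0.00108), Snhg12 (0.00504) and Snhg5 (0.0208), out of 1062 genes it called in all, against 96 for edgeR. With no filter on low counts edgeR called Gas5 (adjusted p = 0.0206) and Snhg12 (0.0449), and without WT LPS replicate 2 it called Gas5 (0.0341). Over 16 alternatives the adjusted p ran from 0.00108 to 0.391 for Gas5, from 0.00504 to 0.413 for Snhg12, from 0.0208 to 0.443 for Snhg5 and from 0.0696 to 0.544 for Snhg1. The log2 difference stayed below 0 in each, between -1.81 and -1.14 for Gas5, -2.04 and -1.14 for Snhg12, -1.64 and -0.89 for Snhg5, and -2.37 and -0.67 for Snhg1. The KO and WT LPS libraries of these hosts did not overlap, so the sign had little room to turn without 1 library. Their steady sign therefore restates that separation. For the hosts whose libraries overlapped, the log2 difference turned sign without 1 library: Snhg6 (0.32 without WT LPS replicate 1), Snhg8 (0.31 without WT LPS replicate 1, 0.25 without KO LPS replicate 1) and Snhg3 (-0.43 without KO LPS replicate 2, -0.16 without WT LPS replicate 2).

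**Figure D3:**
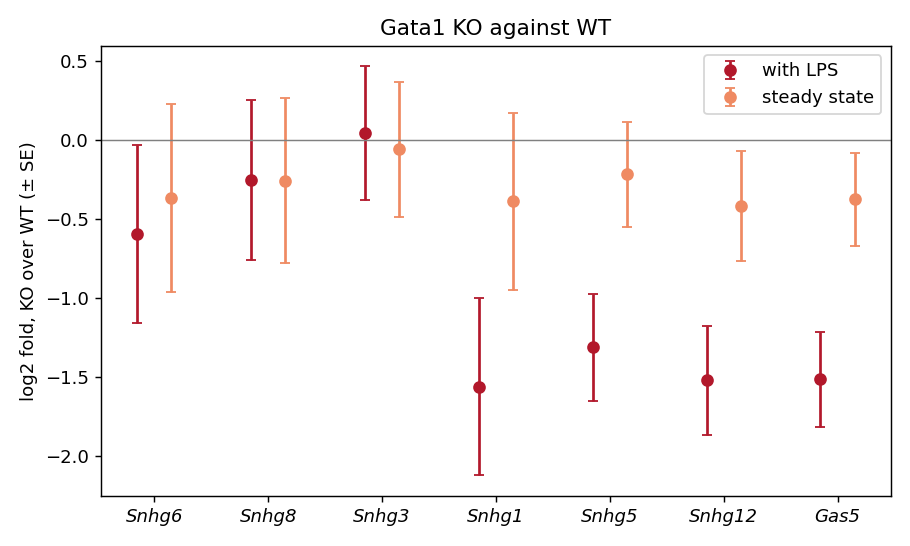
Log2 fold of KO over WT with LPS (dark red) and at steady state (orange) for the 7 hosts, with bars of 1 SE from the edgeR fit. With LPS Snhg1, Snhg5, Snhg12 and Gas5 lie between -1.56 and -1.31, and at steady state all 7 lie between -0.42 and -0.06.

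At steady state the hosts had lower values in KO cells, by at most 0.415 on the log2 scale, and none was called. Gas5 averaged 64.3 ± 7.36 CPM in KO and 83.4 ± 8.10 CPM in WT cells (SD, n = 2), with a log2 difference of -0.37 ± 0.30. Snhg12 averaged 5.06 ± 0.403 CPM in KO and 6.76 ± 0.00278 CPM in WT cells, a difference of -0.42 ± 0.35. For Snhg1 the means were 10.7 ± 1.82 CPM in KO and 13.9 ± 0.488 CPM in WT cells, a difference of -0.39 ± 0.56. The log2 differences of Snhg6, Snhg5, Snhg8 and Snhg3 were -0.36 ± 0.59, -0.22 ± 0.33, -0.26 ± 0.52 and -0.06 ± 0.43. All 7 differences were below 0, as were those of 50.7% of all genes, and the libraries did not overlap for 5 (Snhg1, Snhg5, Snhg6, Snhg12 and Gas5), where 23.3% of all genes lay lower in KO without overlap. None of the 7 was called by edgeR (adjusted p = 1 for each) or DESeq2, and edgeR called 0% of all genes. None of the 7 had an unadjusted p under 0.05, where 2.63% of all genes did. The median was -0.36 over the members and -0.01 over all genes, and the sign turned without WT steady-state replicate 1 for Snhg8 (0.16) and Snhg3 (0.22), and without KO steady-state replicate 1 for Snhg3 (0.10). The SE and p at steady state come from the fit over all 8 libraries, so they also carry the wider spread of the LPS libraries. With only the 2 steady-state groups fitted, the SE was 0.16 for Gas5 and 0.21 for Snhg1. The edgeR adjusted p then ran from 0.437 (Gas5) to 0.967 (Snhg3), and 0 of the 7 were called. The steady-state and LPS comparisons of genotypes compare different libraries, but each LPS response shares its libraries with them. These comparisons are therefore not independent of the LPS responses above.

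Within the LPS groups the 7 hosts moved together from library to library. All 7 were higher in KO LPS replicate 2 than in KO LPS replicate 1, and all 7 were higher in WT LPS replicate 1 than in WT LPS replicate 2, a combination seen in 35.9% of all tested genes. The gap was widest for Snhg6, at 2.57-fold between the KO libraries and 2.81-fold between the WT libraries, and narrowest in WT for Snhg12, at 1.10-fold. KO LPS replicate 2 and WT LPS replicate 1 also had the lowest TMM factors, 0.816 and 0.891, which raise the CPM of every gene in them. For Snhg5 in KO and Snhg12 in WT the order rested on these factors, and counts scaled to total reads alone had the opposite order. Of 7 LPS-induced genes, 3 had the same order in both genotypes (Nos2, Isg15 and, by a small margin, Il6), 3 had the opposite order in both (Il12b, Tnf and Ifit1), and Cxcl10 had it in KO alone. Nos2, the inducible nitric oxide synthase, had 252 and 987 CPM in KO LPS, against 1539 and 401 CPM in WT LPS. Their sum had the order of the hosts, with 940 and 1625 CPM in KO LPS, against 3311 and 2264 CPM in WT LPS, but this rested on Nos2: without it the sum was 688 and 639 CPM in KO LPS, against 1772 and 1863 CPM in WT LPS. The cytokine gene Il6 had 28.8 and 29.4 CPM in KO LPS, against 253 and 249.5 CPM in WT LPS, and fell in KO (log2 -3.11 ± 0.40, edgeR adjusted p = 0.0344). Of the 9 dendritic cell markers, 3 had the order of the hosts in both genotypes, the MHC class II genes H2-Aa and H2-Ab1 and their partner Cd74. The part of the LPS response or of cell composition in the host levels was not tested.

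Among markers of other cell types that these samples could hold, those of neutrophils, B cells, T cells, and mast cells and basophils were low with LPS, and those of macrophages were not. The 5 neutrophil markers present summed to 21.7 and 35.5 CPM in KO LPS (Retnlg at 0), against 18.0 and 16.7 CPM in WT LPS. The 5 B cell markers summed to 1.02 and 0.765 CPM in KO LPS (Pax5 at 0), against 0.529 and 5.44 CPM in WT LPS. The 4 T cell markers present were at 1.47 and 1.68 CPM in KO LPS (Cd3e and Cd3g at 0), against 1.32 and 2.78 CPM in WT LPS. The 5 mast cell and basophil markers were at 0 and 0.306 CPM in KO LPS (Prss34, Fcer1a and Ms4a2 at 0), against 0 and 0.618 CPM in WT LPS. The 5 macrophage markers present, which dendritic cells cultured from marrow can share, were at 4663 and 5646 CPM in KO LPS, against 4732 and 2390 CPM in WT LPS, about as high in KO LPS replicate 1 as the dendritic cell markers. With LPS Cd14, a macrophage marker that is also the LPS co-receptor, rose by 2.98 ± 0.52 on the log2 scale in KO (edgeR adjusted p = 0.0164) and by 3.50 ± 0.54 in WT cells (edgeR adjusted p = 0.0140). It was the highest of the 5 tested macrophage markers in both. In each genotype 3 of the 5 were above 0 and 2 below, the lowest at -1.24 in KO and -2.54 in WT. The neutrophil marker Camp rose in KO cells (log2 5.78 ± 1.12, edgeR adjusted p = 0.0221). The neutrophil list was split there: of 5 tested markers 3 were above 0 and 2 below, the lowest at -6.48. At steady state WT replicate 2 stood apart, with 200 CPM of neutrophil and 88.3 CPM of mast cell and basophil markers, against 23.1 and 2.70 CPM in WT replicate 1. The 5 proliferation markers were at 181 and 117 CPM in KO LPS, against 164 and 56.6 CPM in WT LPS. Their part in the host levels was not tested.

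The members differed from each other in profile. Over the 4 group means of log2(CPM + 0.5), each centred on its own mean, Snhg1 and Snhg12 were the closest pair, with a root mean square difference of 0.11. Snhg5 and Gas5 were next at 0.30, and Snhg6 and Gas5 were the farthest apart at 1.42. Of 8707 candidate genes, those most like Snhg6 were the class I MHC gene H2-Q5 (0.09), the chemokine gene Ccl5 (0.17), the interleukin-18 binding protein gene Il18bp (0.20), the 2′-5′ oligoadenylate synthetase gene Oas1g (0.20) and the angiogenic factor gene Vegfa (0.20), against a median of 1.49 over all candidates. H2-Q5 and Oas1g have near-identical relatives with which reads could be shared, so their values are uncertain. Those most like the mean of the 7 members were Tnfaip3, an inhibitor of NF-kB signalling (0.04), the cytokine gene Il18 (0.06), the interferon signalling factor Stat2 (0.08), the zinc finger gene Repin1 (0.08) and Ebi3, a subunit of interleukins of the IL-12 family (0.08), against a median of 0.82. This likeness is a description over 4 group means and says nothing of shared control.

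The machinery around these RNAs was described from further lists. Of 17 other RNA hosts listed, 8 had a row and 5 passed the filter (Snhg4, Snhg7, Snhg11, Dancr and Taf1d), with 0 called in any of the 5 comparisons by edgeR. Taf1d, a protein-coding host that encodes a subunit of the RNA polymerase I factor SL1, had 15.01 and 33.8 CPM in KO LPS, against 133 and 30.4 CPM in WT LPS, so the log2 difference of -1.74 ± 0.67 rested on WT replicate 1 (edgeR adjusted p = 0.248). Snhg4 was at 0.931 ± 0.199 CPM in KO LPS and 2.17 ± 1.23 in WT LPS (SD, n = 2), and Snhg7 at 1.86 ± 0.247 and 3.15 ± 0.710 CPM. With LPS this list had a median log2 difference of -0.76 between KO and WT, with 4 of 5 below 0. The 26 tested protein-coding hosts had 21 below 0 and a median of -0.17, with 0 called.

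Among proteins that bind snoRNAs, none was called between genotypes in either condition. With LPS the 8 snoRNP core genes had a median log2 difference of -0.17 and the 12 assembly genes one of 0.17. Fbl, the methyltransferase of box C/D particles, was at 2.51 ± 0.995 CPM in KO LPS and 5.59 ± 1.44 in WT LPS (SD, n = 2; edgeR adjusted p = 0.265), and Nop56, another core protein of that class, at 37.6 ± 26.9 and 36.6 ± 7.18 CPM (edgeR adjusted p = 0.980). Nhp2, a core protein of H/ACA particles, was at 44.0 ± 25.8 and 29.0 ± 1.41 CPM (edgeR adjusted p = 0.524). In the LPS response of KO cells Dkc1, the pseudouridine synthase of H/ACA particles, fell (log2 -2.06 ± 0.47, edgeR adjusted p = 0.0354), and Znhit3, an assembly factor, rose (log2 1.52 ± 0.39, edgeR adjusted p = 0.0463). In WT cells Dkc1 was also lower with LPS, without being called (log2 -1.34 ± 0.46, edgeR adjusted p = 0.122). The assembly genes named by the rule, Nolc1, Shq1 and Nufip1, had log2 differences between KO and WT with LPS of 0.41 ± 0.33, 0.67 ± 0.43 and -0.68 ± 0.68.

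The nonsense-mediated decay list, relevant because it degrades spliced hosts, had 0 of 20 genes called between genotypes in either condition. With LPS its median log2 difference was -0.12, with 13 of 20 below 0. Upf1, the central helicase of the pathway, was at 113 ± 0.135 CPM in KO LPS and 122 ± 11.2 in WT LPS (SD, n = 2; log2 -0.12 ± 0.21, edgeR adjusted p = 0.841), and Smg1, the kinase that phosphorylates it, at 201 ± 59.8 and 203 ± 27.7 CPM (edgeR adjusted p = 0.994). Smg5 and Casc3 had log2 differences of -0.76 ± 0.22 and -0.76 ± 0.24 (edgeR adjusted p = 0.146 and 0.160).

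Ribosomal protein mRNAs and other TOP mRNAs leaned the same way as the hosts but by less under LPS. Several such hosts are known to share their 5′ tract, which was not shown for every host here. Of 76 tested ribosomal protein genes 64 were below 0 with LPS (median log2 -0.33 between KO and WT) and 69 at steady state (median -0.41), with 0 called in either. Rps3, among the most abundant, was at 755 ± 159 CPM in KO LPS and 876 ± 324 CPM in WT LPS (SD, n = 2; edgeR adjusted p = 0.838). Rpl37 and Rpl4 had log2 differences of -0.86 ± 0.27 and -0.09 ± 0.33. In the LPS response of WT cells 1 of the 76, Rpl27a, fell (log2 -1.78 ± 0.35, edgeR adjusted p = 0.0292). Ribosomal protein genes have many pseudogene copies, so their counts are uncertain. Of 19 TOP-mRNA translation factors 18 were below 0 in each condition, with medians of -0.31 with LPS and -0.27 at steady state and 0 called. Eef1b2, an elongation factor subunit, was at 201 ± 15.3 CPM in KO LPS and 394 ± 112 in WT LPS (edgeR adjusted p = 0.188). The log2 differences of Eef1a1, Eef2 and the histone chaperone gene Nap1l1 were -0.75 ± 0.33, -0.44 ± 0.42 and -1.61 ± 0.58, none of them called. The ribosomal protein list summed to 5007 and 6658 CPM in KO LPS, against 9058 and 5950 CPM in WT LPS, and to 5516 and 5560 CPM in KO steady state, against 9247 and 6125 CPM in WT steady state. In both conditions WT replicate 1 was thus the highest library of the comparison.

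Genes of ribosome biogenesis and of mTOR signalling, which controls translation of TOP mRNAs, were not called between genotypes either. The 33 biogenesis genes had a median log2 difference of 0.16 with LPS, with 25 above 0 and 0 called, and Ncl, which encodes the nucleolar protein nucleolin, was at 262 ± 99.8 CPM in KO LPS and 272 ± 83.0 in WT LPS (SD, n = 2; edgeR adjusted p = 0.964). Polr1c, a polymerase I and III subunit, Wdr12 and Rrp1 had log2 differences of -0.99 ± 0.34, 1.24 ± 0.49 and 0.16 ± 0.35. The 13 genes of the TOP and mTOR list had a median of -0.10. Mtor itself was at 75.9 ± 17.3 and 133 ± 31.5 CPM (log2 -0.80 ± 0.32, edgeR adjusted p = 0.255), and Larp1, the TOP-binding repressor, at 252 ± 39.0 and 219 ± 60.2 CPM (edgeR adjusted p = 0.787). In the LPS response of KO cells Rptor, the mTOR complex subunit raptor, fell (log2 -1.70 ± 0.34, edgeR adjusted p = 0.0235). In WT cells Rptor was also lower with LPS, without being called (log2 -1.23 ± 0.33, edgeR adjusted p = 0.0706). Rictor, the subunit of the other mTOR complex, differed by -0.94 ± 0.32 between KO and WT with LPS, and Rptor by -0.57 ± 0.33. Over these 9 lists the medians with LPS lay between -0.76 and 0.17, against -1.31 for the 7 hosts. Among the marker lists, the median was -2.14 for the 9 dendritic cell markers, -1.94 for 4 tested B cell markers, -1.47 for 2 tested mast cell and basophil markers, -0.78 for the 7 LPS-induced genes and 1.04 for 5 macrophage markers. No list was tested against the others.

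**Figure D4:**
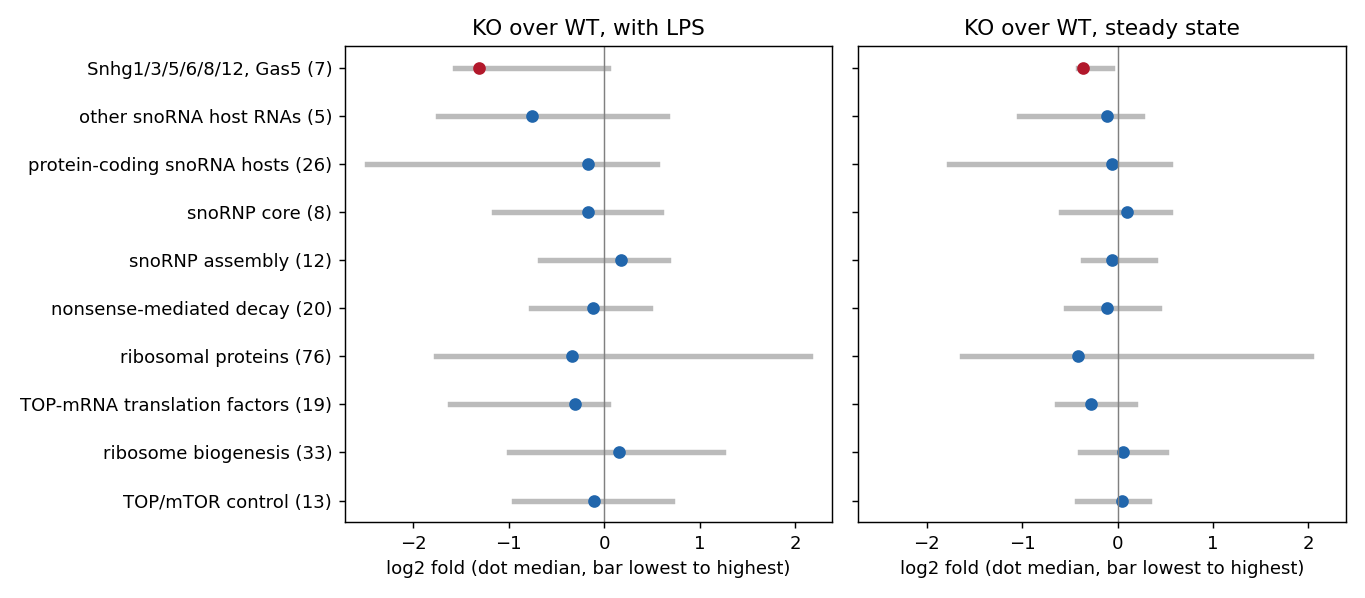
Log2 fold of KO over WT with LPS (left) and at steady state (right) for the 7 hosts (red) and the further lists (blue), with the number of tested genes in parentheses, a dot at the median and a bar from the lowest to the highest gene. With LPS the median of the hosts is -1.31 and those of the 9 lists plotted below it lie between -0.76 and 0.17. The marker lists, the dendritic cell list at -2.14 among them, are not plotted.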

How the data were processed

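The deposited table held raw read counts per gene as the authors made it, with 1 column per library and no scaling. TopHat2 2.0.8, featureCounts, Subread 1.4.3 and edgeR 3.6.8 are listed, with the build mm10 and no roles, per the submitters' processing notes. The sources used here do not say how reads that match several genes were counted. Per the labels' protocols, an RNeasy kit gave the RNA and a TruSeq v2 kit the libraries. That kit does not mark strand, so overlapping genes cannot be told apart by strand. Groups and replicate numbers came from the titles.

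R 4.3.3 and edgeR 4.0.16 were used: filterByExpr (minimum count 10, minimum total 15), TMM, 1 coefficient per group, and the quasi-likelihood F test, two-sided, with Benjamini-Hochberg adjustment (4 residual and 3.40 prior degrees of freedom). The SE is the size of the log2 fold divided by the square root of F. No 2 libraries of a group agreed within sampling noise (chi-square per gene 18.8 to 186). The alternatives changed the scaling (RLE, upper quartile), the filter (none, or a CPM of 1 in 2 libraries), the tool (DESeq2 1.42.0), the dispersion (robust), the design (replicate number as block, or only the groups compared) or left out each library in turn, in which case a lone library takes its spread from the rest.

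The members and lists were chosen with earlier results of these data known. List genes named are the 2 with the largest mean CPM and the 2 with the smallest p in KO against WT with LPS; some genes are not reported here. Dkc1, Znhit3, Rpl27a, Rptor and Il6 were named or described because they were called. Hspa8 was named because it was the lowest of the protein-coding hosts in KO against WT.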

Additional observations from a re-analysis of the deposited data

Results flagged for a closer look

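Gas5 was singled out because its LPS libraries moved in opposite directions in the genotypes. Both KO LPS libraries (43.5 and 57.8 CPM) lay below both KO steady-state libraries (59.1 and 69.5 CPM), and both WT LPS libraries (179 and 111 CPM) lay above both WT steady-state libraries (89.1 and 77.6 CPM). In KO cells the nearest libraries of the groups, 57.8 and 59.1 CPM, were close. The difference of the responses, KO minus WT, was -1.14 on the log2 scale and did not pass the test (edgeR adjusted p = 0.694, unadjusted p = 0.0283). It ran between -1.44 and -0.76 over the 15 alternatives run, and was called in none of those that kept all 8 libraries. Gas5 was flagged for libraries that lay apart in opposite directions, so the sign had little room to turn without 1 library. The steady sign is therefore no further support.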

How the results depend on the processing

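Values of single hosts were recomputed 553 times. Between genotypes and in the difference of responses, 6 gained a call (all KO against WT with LPS) and 18 turned sign; the turned signs were all of uncalled differences, without 1 library, and the cause was not tested. In the LPS responses 12 moved by more than the spread of replicates. Those responses chose the group, so nothing is read from the counts of calls in them given below. Of 16 alternatives each, calls were made in 11 for Snhg6, 10 for Snhg8 and 5 for Snhg12 in KO, and in 14 for Snhg12, 10 for Snhg6, 5 for Snhg8, 3 for Snhg1, 3 for Snhg5 and 1 for Gas5 in WT. Without 1 library each, Snhg3 ran from -0.32 to 0.22 and Snhg8 from -0.60 to 0.16 in KO against WT at steady state. With LPS, Snhg6 ran from -1.45 to 0.32, Snhg8 from -1.02 to 0.31 and Snhg3 from -0.43 to 0.40. In the difference of responses, Snhg6 ran from -1.09 to 0.69, Snhg3 from -0.38 to 0.45 and Snhg8 from -0.78 to 0.56. Hosts called lower in KO with LPS were 0 in edgeR, 2 with no filter, 3 with DESeq2 and 0 to 1 without 1 library. Hosts called higher with LPS were 2 in KO (1 with the replicate block, 0 to 3 without 1 library) and 2 in WT (5 with no filter, 5 with DESeq2, 1 with the replicate block, 1 with only the 2 groups, 0 to 6 without 1 library).

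Genes called over the whole table were 0 for KO against WT at steady state (9 with no filter, 27 with DESeq2, 1 with only the 2 groups, 0 to 1 without 1 library). With LPS they were 96 (538 with no filter, 1062 with DESeq2, 8 with the replicate block, 0 with only the 2 groups, 1 to 826 without 1 library). For LPS in KO they were 1463 (2223 with no filter, 2846 with DESeq2, 776 with the replicate block, 2316 with only the 2 groups, 143 to 3345 without 1 library), and in WT 807 (1497 with no filter, 1995 with DESeq2, 465 with the replicate block, 229 with only the 2 groups, 70 to 3629 without 1 library). For the difference of responses they were 0 (3 with no filter, 113 with DESeq2, 0 to 0 without 1 library), a fit to only 2 groups being not applicable. The labels do not say that numbers pair libraries. Deviations of same-numbered libraries correlated at 0.157 between genotypes at steady state, -0.629 with LPS, 0.108 between treatments in KO and 0.263 in WT, across genes. RLE and upper-quartile factors moved the median of all genes by less than 0.1 and turned no sign of a host. Depth was not varied.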
